A study of Mus musculus with 87 samples.

Results

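The axon guidance ligands and receptors are the semaphorins, plexins, neuropilins, Eph receptors, ephrins, Slit and Robo proteins, netrins, Unc5 receptors and Dcc. Members were chosen by gene symbol among the 48526 genes of the plate table, with at least 50 counts summed over all 84 wells of sorted nuclei. Of 71 genes with a matching symbol, 61 passed: 29 ligands, 31 receptors and 1 antisense RNA, Plxna4os3. By family they were 18 semaphorins, 10 plexin genes with the antisense RNA among them, 2 neuropilins, 12 Eph receptors, 6 ephrins, 3 Robo receptors, 3 Slits, 2 netrins, 4 Unc5 receptors and Dcc. The members closest above the limit were Efnb1 with 50 counts and Plxnd1 with 60, and the closest below it were Efna1 with 40 and Plxna4os2 with 39.

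All mice were wild type C57BL/6J adults of both sexes aged 6 to 12 months, given 400 nL of saline or 40 ng of interferon-γ (IFN-γ, the cytokine released by activated T cells and natural killer cells) into the ventral midbrain. Nuclei were sorted with an antibody to NeuN, a nuclear protein of most neurons, into NeuN+ and NeuN- fractions 6, 24, 48 or 72 h later and sequenced from the 3′ end in wells. Each fraction held 6 IFN-γ wells per time point and 4, 6, 4 and 4 saline wells at 6, 24, 48 and 72 h. A droplet experiment at 48 h gave 4699 single nuclei from 1 saline mouse and 2 IFN-γ mice. These nuclei were sorted beforehand so that NeuN+ nuclei were the larger part. A few mice gave the wells of each group and the wells that share a mouse are not named in the sources used here, so p-values measure only the spread between wells, which may be technical. The control mice also had surgery and a saline injection, so no group was without an injection.

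Guidance cues steer growing axons by attraction or repulsion, and in the adult brain the same proteins shape synapses, myelin, vessels and the movement of glial precursors. Class 3 semaphorins are secreted and mostly signal through a plexin with a neuropilin as co-receptor, Slits repel through Robo receptors, netrins attract through Dcc or repel when an Unc5 receptor takes part, and Eph receptors and ephrins signal in both directions between touching cells. In the ventral midbrain, netrin, Dcc, Slits and semaphorins are known for laying out the paths of dopamine axons during development.

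NeuN- wells held 20962 to 301445 unique molecules (UMIs) and NeuN+ wells 277113 to 1684374, so members were measured far more finely in NeuN+ nuclei. The deposited labels call every well NeuN+, and the fraction used here was taken by well barcode from a list supplied with the study. The pan-neuronal markers Rbfox3, Snap25 and Syt1 summed to 2709 counts per 1e6 UMIs (CPM) in NeuN+ saline wells (2265 to 3356) and to 203 in NeuN- saline wells (103 to 439.8), and 6 oligodendrocyte markers summed to 345 and 7937 CPM. The 3 T cell markers reached at most 10.0 CPM in any saline well. Wells compared also differed in sex-linked genes: at 24 h Xist averaged 652 CPM in NeuN+ saline and 50.5 CPM in NeuN+ IFN-γ wells, at 6 h the Y-linked Eif2s3y ranged from 65.0 to 80.9 CPM in NeuN+ saline and from 0 to 2.00 CPM in NeuN+ IFN-γ wells, and the members Plxnb3, Plxna3 and Efnb1 are X-linked. The part of sex in the results was not tested. In sorted nuclei, fewer cells of a type and less RNA per cell cannot be told apart.

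Without IFN-γ, guidance genes took a larger share of the RNA in NeuN+ nuclei. They made up 1.22% ± 0.0388 (SD, n = 18 wells) of the UMIs in NeuN+ and 0.529% ± 0.0313 (SD, n = 18 wells) in NeuN- saline wells, which did not overlap. Between 18 NeuN+ and 18 NeuN- saline wells, 31 members had enough counts to test, and 24 were higher and 7 lower in NeuN+ nuclei (edgeR quasi-likelihood test, log2 fold change beyond 0.5 and Benjamini-Hochberg adjusted p below 0.01). Of all 5699 genes tested, 32.4% were higher and 27.7% lower by that rule. The median log2 difference was 1.86 over the members and 0.04 over all genes. The count filter took both fractions together, so a member could be tested through the fraction in which it was higher. The members that did so were not counted. Epha10, for example, held 14 counts in the NeuN- saline wells and at most 29.7 CPM in any of them. Plxnb3 held at most 10.8 CPM in any NeuN+ saline well. The split into 24 and 7, the median and the order of members below rest in part on members admitted through their higher fraction. Without that filter more members were tested, and 47 passed the rule. The share of all genes that passed without the filter is not given, so nothing is drawn from the 47.

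The receptors furthest toward NeuN+ were Unc5d, a netrin receptor (log2 fold change 4.41, SE 0.12, adjusted p 1.96e-38), and Epha10, Epha6 and Robo2 at 4.26, 4.02 and 3.98. Unc5d ranged from 655 to 876 CPM in NeuN+ saline wells with a median of 782, and from 17.1 to 109.96 CPM in NeuN- wells with a median of 29.1. The NeuN+ wells all lay above the NeuN- wells. Among ligands, Efna5, a membrane-anchored ephrin that binds EphA receptors, differed by 3.98 (SE 0.14), and Slit2, the repellent that binds Robo receptors, by 3.59 (SE 0.12). Epha3 and Epha7 differed by 3.75 and 3.36. Dcc, the netrin receptor with the most counts of all members (86966), was present in both fractions at 1981 ± 379 and 875 ± 125 CPM (SD, n = 18), a log2 difference of 1.196 (SE 0.09).

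The 7 members higher in NeuN- nuclei were Plxnb3, Efnb3, Sema6a, Sema4d, Ephb1, Sema3d and Unc5c. Plxnb3, a receptor for Sema5a, differed most (log2 fold change -5.15, SE 0.14, adjusted p 1.67e-37), from 105 to 315 CPM in NeuN- saline wells against 3.68 to 10.8 CPM in NeuN+ wells. Efnb3, a transmembrane ephrin that repels axons bearing Epha4, followed at -3.07 (SE 0.21). Sema6a, a membrane semaphorin that binds plexin-A2 and plexin-A4, differed by -1.32 (SE 0.10) and Sema4d, the ligand of plexin-B1, by -1.19 (SE 0.17). Unc5c, a netrin receptor, was 1501 ± 182 CPM in NeuN- and 970 ± 105 CPM in NeuN+ saline wells (SD, n = 18), and its log2 fold change was -0.62 (SE 0.07). Ephb1 and Sema3d differed by -0.71 (SE 0.06) and -0.70 (SE 0.16). Without the filter on low counts these 3 differences were -0.28, -0.37 and -0.36, inside the limit of 0.5, and that of Unc5c was also inside it in DESeq2 (-0.50) and with treatment as a term (-0.38).

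**Figure D1:**
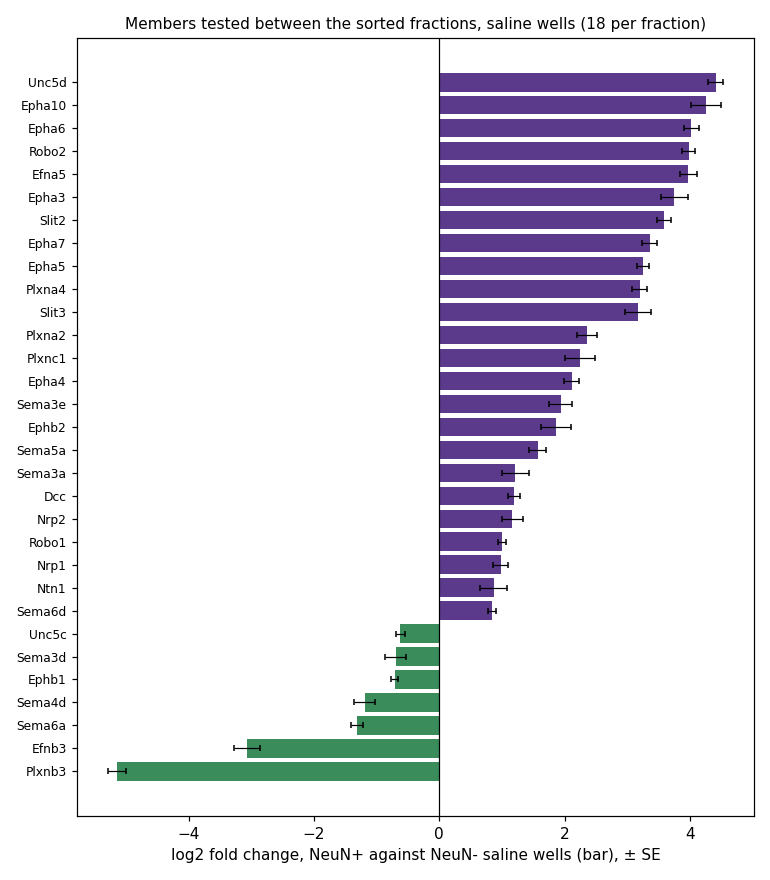
Log2 fold change (x axis, bar, with its SE) of each of the 31 members tested between 18 NeuN+ and 18 NeuN- saline wells, one member per row. The 24 members above 0 run up to Unc5d at 4.41, and the 7 below 0 reach Plxnb3 at -5.15.

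The single nuclei at 48 h gave the same genes by class of cell. Clusters were named from fixed marker lists, and levels between classes are a description because the clusters were built from the same nuclei. In the saline mouse, 191 oligodendrocyte, 21 astrocyte, 31 microglia, 256 VGLUT2 neuron, 303 GABA neuron and 165 dopamine neuron nuclei were named, and 49 were left unnamed. GABA neurons held 35.8% of all member UMIs (exact 95% binomial interval 35.6 to 36.0, counting error only), dopamine neurons 33.5% (33.3 to 33.7) and VGLUT2 neurons 27.7% (27.5 to 27.9), against 1.72% in oligodendrocytes. The nuclei were enriched for NeuN+, and of all UMIs of this mouse these classes held 37.2%, 24.2%, 31.8% and 4.25%. Relative to the UMIs of each class, members made up 1.64% in dopamine neurons, 1.14% in GABA neurons, 1.03% in VGLUT2 neurons, 0.478% in oligodendrocytes, 0.208% in astrocytes and 0.158% in microglia.

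Dopamine neurons were the class with the highest level for 16 of the 47 members with at least 20 UMIs in their leading class (19.4% of all 7722 such genes), and for 9 of them the interval lay apart from every other class (4.12%). Ntn1, the gene of netrin-1, stood at 383 CPM there (exact Poisson 95% interval 364 to 403) and at 73.3 CPM (31.6 to 144) in astrocytes, the next class. Its receptor Dcc was also highest in dopamine neurons, at 4178 CPM (4114 to 4242) against 2785 CPM in GABA neurons. Sema6d, a membrane semaphorin, was at 2022 CPM against 599 CPM in VGLUT2 neurons. Robo2, Epha5 and Plxna1 were 1.84, 1.80 and 2.21 times their level in VGLUT2 neurons. The dopamine neurons of both IFN-γ mice were the highest class for each of these 6 members too. Of these 6, Plxna1 was not among the 9 apart from every other class in the saline mouse. Epha4, which was among the 9, led in dopamine neurons in 0 of the IFN-γ mice. The limit of 20 UMIs asks for a higher level in classes with fewer UMIs, so counts of leading members also depend on depth. The saline mouse held 3949958 UMIs in dopamine neurons, 109155 in astrocytes and 83984 in microglia. The shares over all genes met the same limit.

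GABA neurons were highest for 11 members (23.6% of all genes), and the intervals of Sema3e, Unc5d, Ephb2 and Epha7 lay apart from every other class (1.77%). Sema3e stood there at 99.6 CPM (91.8 to 108) against 39.3 CPM in VGLUT2 neurons and 3.80 CPM in dopamine neurons. Unc5d reached 1117 CPM in GABA neurons and 612 CPM in VGLUT2 neurons. Epha7 and Ephb2 were at 1.22 and 1.19 times the next class, and Sema3f and Sema3c at 1.81 and 1.34 times with overlapping intervals. GABA neurons were also the highest class in both IFN-γ mice for Sema3e, Unc5d and Ephb2, in 1 of them for Epha7 and Sema3c and in 0 for Sema3f. VGLUT2 neurons were highest for 11 members (19.5%), 4 of them apart from every other class (1.57%). Slit3 stood there at 144 CPM (134 to 154) against 66.1 CPM in GABA neurons, followed by Sema5a, Slit2 and Efna5 at 1.80, 1.51 and 1.17 times the next class, and by Sema3d at 1.25 times with overlapping intervals. The same class led in both IFN-γ mice for Slit3 and Sema5a and in 1 of them for Slit2, Sema3d and Efna5.

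Oligodendrocytes led for 6 members (22.8% of all genes), each with an interval apart from every other class (6.58%), and 5 of them are among the 7 higher in NeuN- wells. Unc5b, an Unc5 receptor, was at 83.5 CPM (63.4 to 108) and at 2.14 CPM in GABA neurons, the next class. Efnb3 was at 174 CPM (145 to 208) against 8.47 CPM in VGLUT2 neurons. Plxnb3 was at 181 CPM (151 to 216), with 0 UMIs in the neurons of all 3 classes, which allows up to 0.760 CPM in dopamine neurons on 3 counts. Sema6a, Unc5c and Ephb1 were at 301, 1667 and 531 CPM, 2.74, 1.39 and 1.19 times the next class. Free RNA bears on low levels in glial nuclei: pan-neuronal markers summed to 41.4 to 179 CPM there over the 3 mice against 2881 to 6088 CPM in neurons.

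In microglia Sema4d was at 262 CPM (164 to 397, 22 UMIs) against 83.5 CPM in oligodendrocytes, and Plxna4 at 619 CPM (462 to 812) overlapped the VGLUT2 neurons at 529.6 CPM. Nrp1 was at 238 CPM (156 to 349) in astrocytes and 202 CPM (118 to 324) in microglia, and these intervals overlap. The saline mouse gave 1.44 CPM of Nrp1 in oligodendrocytes, 1 UMI in 191 nuclei. Microglia led for Sema4d in both IFN-γ mice. Plxna4 led in microglia, and Nrp1 in astrocytes, in 0 of the IFN-γ mice.

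IFN-γ changed few members by more than 2-fold, and in different directions at different times. In each comparison of IFN-γ with saline wells, a first rule asked for a log2 fold change beyond 1 with an adjusted p below 0.01, and a second for an adjusted p below 0.05 alone. Rose and fell are used here for the second. Where members at an unadjusted p below 0.05 are counted in wells, the share over all genes is not given, so nothing is drawn from those counts. The comparisons at 6 and 24 h, where most genes moved, also held most members that moved. Of 47 calls by the second rule over the 8 comparisons, 5 were of members that met the count filter only through the group in which they were higher: Sema3e at 6 h and Nrp1 and Plxnb3 at 24 h in NeuN- wells, and Plxnb3 at 24 and 72 h in NeuN+ wells.

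In NeuN- wells at 6 h, 11 members could be tested, 1 rose and 1 fell by the first rule (7.86% and 3.87% of all 2660 genes tested), and 1 rose and 5 fell by the second (17.3% and 15.9%). Their median log2 fold change was -0.40, with -7e-04 over all genes, and 1 of 11 lay above 0. At 24 h, 8 were tested, 1 rose and 2 fell by the first rule (7.22% and 7.38% of 1883 genes) and 1 rose and 7 fell by the second (21.3% fell and 41.3% changed either way), with a median of -0.62 against 0.01 over all genes. The share of UMIs in members was 0.425% ± 0.0114 (SD, n = 6) after IFN-γ and 0.524% ± 0.0402 (SD, n = 4) after saline at 6 h, and 0.424% ± 0.0269 against 0.529% ± 0.0274 (SD, n = 6 each) at 24 h, and the wells did not overlap at either time. At 48 h, by edgeR, 0 of 8 members passed the first rule (1.23% higher and 0.170% lower of 2352 genes), by DESeq2 also 0, and 3 were below an unadjusted p of 0.05; 1 fell by the second rule (4.21% and 2.00%). At 72 h the counts of 12 members were 0 by both tools for the first rule (0.754% and 0.377% of 2916 genes), 4 at an unadjusted p below 0.05, and 1 higher by the second rule (1.65% and 2.33%). Nothing is drawn from the 3 and the 4 at an unadjusted p, for which no share over all genes is given.

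In NeuN+ wells at 6 h, 40 members were tested, 1 rose by the first rule (1.08% and 0.288% of 9033 genes), and 6 rose and 6 fell by the second (4.48% and 4.12%). At 24 h 43 were tested, 0 passed the first rule by edgeR or by DESeq2 (1.47% and 0.266% of 9416 genes) with 16 at an unadjusted p below 0.05, and 4 rose and 6 fell by the second (6.23% and 5.30%). At 48 h 45 were tested, 0 passed the first rule by either tool (0.150% and 0.0199% of 10033 genes) with 10 at an unadjusted p below 0.05, and 1 fell by the second (0.628% and 0.239%). Nothing is drawn from the 16 and the 10, since the share over all genes at an unadjusted p is not given. At 72 h 42 were tested, 1 rose by the first rule (0.351% and 0.415% of 9405 genes), and 4 rose and 4 fell by the second (3.37% and 3.80%). At 6 h, 6 of 46 members with at least 50 counts had every IFN-γ well above every saline well (5.53% of such genes) and 3 had every one below (2.27%). Medians over the members were -0.03, 0.01, -0.07 and 0.06 from 6 to 72 h. The share of UMIs in members stayed between 1.13% and 1.33% in every NeuN+ well.

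**Figure D2:**
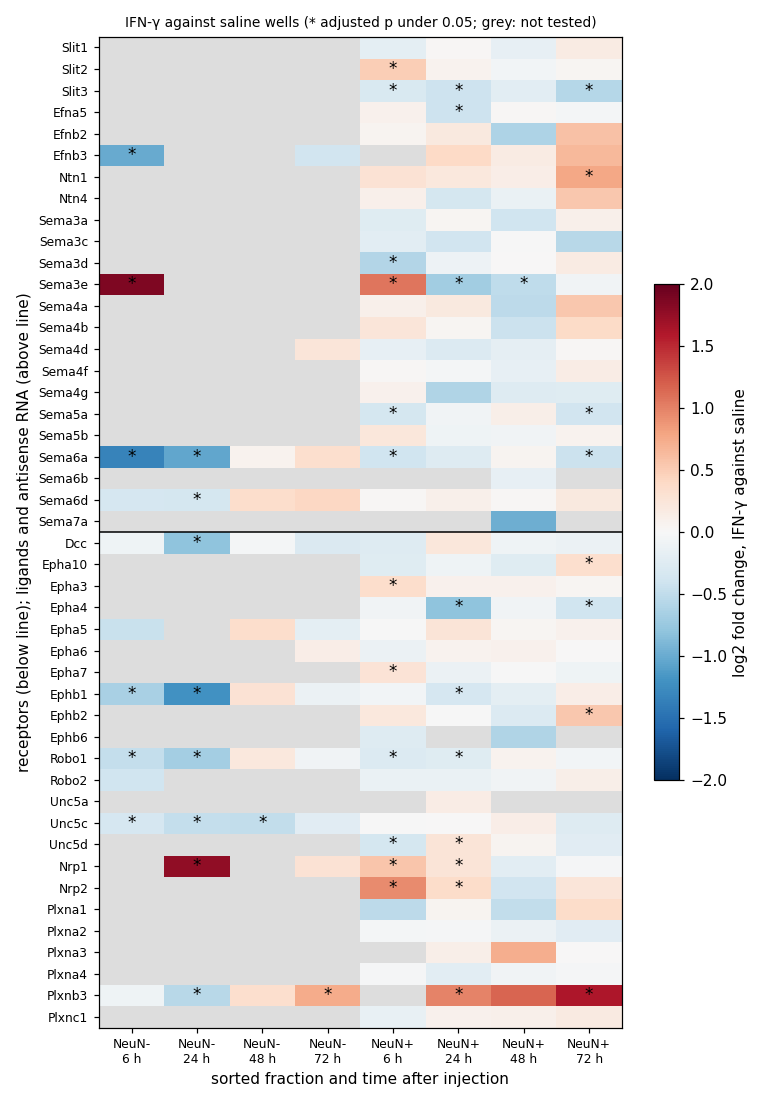
Log2 fold change of IFN-γ against saline wells (colour, red higher after IFN-γ, scale ending at 2 in each direction) for the 46 members tested in any of 8 comparisons, with time and fraction across and genes down. Stars mark an adjusted p below 0.05 and grey cells were not tested; Sema3e is red at 6 h in both fractions and blue at 24 h in NeuN+ wells.

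Sema3e rose first and fell later. It encodes a secreted semaphorin that signals through plexin-D1 in vessels and neurons, and lies at chr5:14025276-14256689 on the plus strand (GRCm38). In NeuN+ wells at 6 h the saline values were 83.8, 84.6, 93.8 and 115 CPM and the 6 IFN-γ wells ran from 185 to 236 CPM with a median of 204. The groups did not overlap, and the log2 fold change was 1.07 (SE 0.10, edgeR adjusted p 9.33e-10). At 24 h the 6 saline wells ran from 87.6 to 108 CPM with a median of 91.4 and the 6 IFN-γ wells from 46.9 to 63.9 CPM with a median of 56.8. All IFN-γ wells were now below all saline wells, at a log2 fold change of -0.70 (SE 0.10, adjusted p 9.71e-06). At 48 h the saline wells held 71.7, 87.7, 100.2 and 106 CPM and the IFN-γ wells 34.9 to 78.0 CPM with a median of 65.4. These overlapped, the fold change was -0.50 (SE 0.12, adjusted p 0.0438), and the call was lost without most single wells. At 72 h the means were 99.8 ± 12.1 (SD, n = 4) and 98.7 ± 10.9 CPM (SD, n = 6), a log2 fold change of -0.07 (SE 0.09).

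Beside these values, the 3 GABA markers (Slc32a1, Gad1, Gad2), the class in which Sema3e was highest, summed to 214 CPM in saline (188 to 253) and 189.6 in IFN-γ wells (168 to 214) at 6 h, and to 255 (206 to 323) and 135 CPM (107 to 160.5) at 24 h, with all 3 detected in both groups. At 6 h the wells of that list overlapped while those of Sema3e did not, at 24 h both were lower in every IFN-γ well, and its part in the result was not tested. In NeuN- wells Sema3e passed the count filter at 6 h alone, where the IFN-γ wells by themselves could meet it: the saline wells held 8.56, 28.6, 30.0 and 43.5 CPM (13 counts in all) and the IFN-γ wells 47.7 to 145 CPM with a median of 97.3 (80 counts). The groups did not overlap, and the log2 fold change was 1.86 (SE 0.38, adjusted p 0.000183), or 1.94 with no filter (adjusted p 8.6e-05). The pan-neuronal list summed to 165 CPM in these IFN-γ wells (107 to 334) and to 254 CPM (103 to 439.8) in their saline wells.

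Both neuropilins, the co-receptors of class 3 semaphorins, rose with Sema3e in NeuN+ wells at 6 h. Nrp2 was at 32.5, 52.6, 53.0 and 58.6 CPM in saline wells and at 81.7 to 122 CPM with a median of 106 after IFN-γ. No wells overlapped, and the log2 fold change was 0.95 (SE 0.13, adjusted p 3.86e-06). Nrp1 was at 104, 111, 129.9 and 134 CPM in saline wells and at 156 to 194 CPM with a median of 182 after IFN-γ, again without overlap (0.56, SE 0.09, adjusted p 9.32e-05). At 24 h both were still higher by the second rule, Nrp2 by 0.37 (SE 0.11) and Nrp1 by 0.26 (SE 0.07), with overlapping wells. At 48 and 72 h neither passed. Plxnd1, the plexin that binds Sema3e directly, had 60 counts in all wells and was tested nowhere.

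Nrp1 was also higher after IFN-γ in NeuN- nuclei at 24 h. The 6 saline wells ran from 33.1 to 117 CPM with a median of 66.3 and the 6 IFN-γ wells from 201 to 309 CPM with a median of 269. Every IFN-γ well was above every saline well, and the log2 fold change was 1.77 (SE 0.23, adjusted p 2.37e-07). The saline wells held 39 Nrp1 counts and the IFN-γ wells 259, and Nrp1 met the count filter through the IFN-γ wells alone. Without that filter the fold change was 1.93 (adjusted p 3.48e-12). The 6 astrocyte markers, all detected, summed to 837 CPM (557 to 1207) in the saline and 1966 CPM (1705 to 2267) in the IFN-γ wells of this comparison. In single nuclei of the saline mouse Nrp1 was highest in astrocytes and microglia among the classes named, none of which was endothelial. Astrocytes led in 0 of the IFN-γ mice. The 6 microglia markers went the other way, from 294 CPM (178 to 352) to 178 CPM (147 to 234). The 3 endothelial markers, with Cldn5 at 0, summed to 29.3 CPM (0 to 54.9) and 76.8 CPM (38.4 to 177). Their part in the result was not tested. At 48 h Nrp1 was below the count filter in NeuN- wells, with 12.5, 29.5, 42.1 and 67.4 CPM in saline and 67.5 to 106 CPM with a median of 88.6 in IFN-γ wells, which did not overlap.

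Slit2 and 2 Eph receptors completed the rise in NeuN+ nuclei at 6 h. Slit2 was at 382, 386, 448 and 475 CPM in saline wells and at 587 to 684 CPM with a median of 625 after IFN-γ, with no overlap (log2 fold change 0.50, SE 0.07, adjusted p 1.04e-05). By 24 h it was at 447 ± 27.4 and 456 ± 32.8 CPM (SD, n = 6 each). Epha3 rose by 0.34 (SE 0.08) and Epha7 by 0.28 (SE 0.06). The Slit receptor Robo1 fell by 0.27 on the log2 scale (SE 0.07), and Unc5d, Slit3, Sema3d, Sema5a and Sema6a fell by 0.35, 0.30, 0.59, 0.36 and 0.40. The 9 thalamic markers, genes of a region next to the dissection, summed to 1591 CPM (1413 to 1750.2) in these saline and 1113 CPM (1036 to 1192) in these IFN-γ wells with 8 of 9 detected after IFN-γ, and the 3 VGLUT2 neuron markers to 1963 (1841 to 2045) and 1588 CPM (1536 to 1684). In the same wells the 6 oligodendrocyte markers summed to 324 (288 to 403) and 182 CPM (157 to 209) and the 6 dopamine neuron markers to 347 (281 to 392) and 454 CPM (386 to 534), all detected. Slit3, Sema5a and Sema3d were highest in VGLUT2 neurons among the single nuclei, though Sema3d was at 19.8 CPM there and 15.8 CPM in oligodendrocytes with overlapping intervals. Sema6a was highest in oligodendrocytes, and Slit2, which went the other way, was highest in VGLUT2 neurons. The thalamic list was at 1417 CPM in NeuN- saline wells, so it is not of neurons alone. The part of these lists in the results was not tested.

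**Figure D3:**
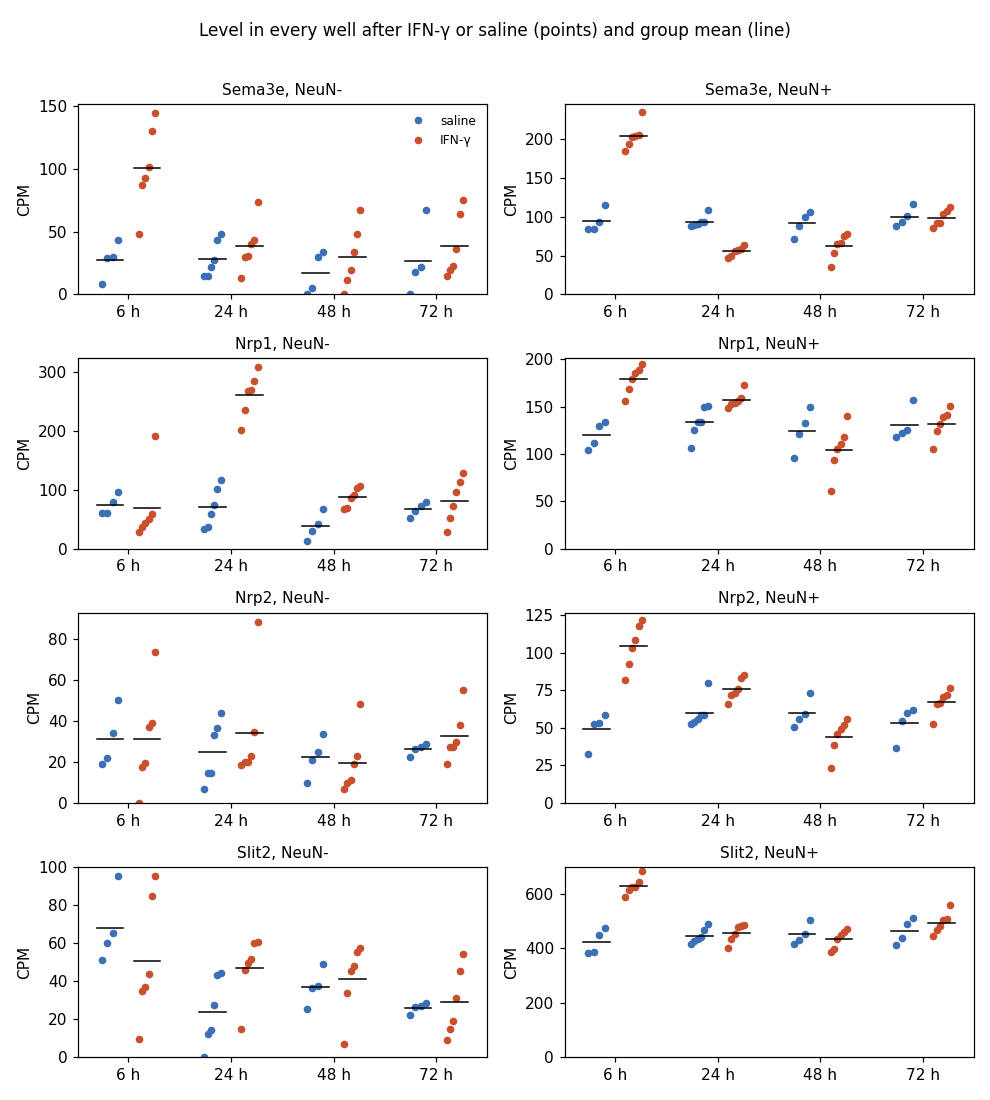
Level in CPM (y axis, from 0) of Sema3e, Nrp1, Nrp2 and Slit2 (rows) in every NeuN- (left) and NeuN+ (right) well at 6, 24, 48 and 72 h, blue for saline and red for IFN-γ, with a black line at each group mean. In NeuN+ wells at 6 h all 6 IFN-γ wells lie above all 4 saline wells for each of the 4 genes.

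In NeuN- nuclei most of the members that changed fell at 6 and 24 h. Sema6a was at 269.9, 277, 368 and 377 CPM in saline wells at 6 h and at 95.4 to 164 CPM with a median of 145 after IFN-γ. The groups were apart and the log2 fold change was -1.33 (SE 0.19, adjusted p 4.24e-07). At 24 h the saline wells ran from 254 to 498 CPM with a median of 410.3 and the IFN-γ wells from 169 to 226 CPM with a median of 196, again apart (-1.03, SE 0.18, adjusted p 2.85e-05), a value that fell inside the limit of 1 without the count filter (-0.85), in 1 fit of all wells (-0.93), against saline wells of all times (-0.82) and in 4 of 12 fits that left out a well. Means at 48 h were 381 ± 66.1 (SD, n = 4) and 376 ± 71.1 CPM (SD, n = 6), and at 72 h 258 ± 32.2 and 331 ± 65.1 CPM, and neither time passed the test.

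Ephb1, a receptor of B-class ephrins, took the same course. Its saline wells at 6 h held 334, 399, 399.9 and 410.5 CPM and its IFN-γ wells 191 to 283 CPM with a median of 247, a fold change of -0.65 (SE 0.15, adjusted p 0.000588) with no overlap. At 24 h saline wells ran from 376 to 485 CPM with a median of 425 and IFN-γ wells from 120.5 to 265 CPM with a median of 194. Here too the groups were apart, at -1.21 (SE 0.16, adjusted p 3.84e-07). By 48 h the IFN-γ mean, 526 ± 61.5 CPM (SD, n = 6), was above the saline mean of 443 ± 35.3 CPM (SD, n = 4).

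Dcc fell at 24 h in NeuN- wells, from 617 to 1056 CPM with a median of 808 in saline to 431 to 703 CPM with a median of 459 in IFN-γ wells. A single IFN-γ well reached into the saline range, and the fold change was -0.81 (SE 0.15, adjusted p 4.68e-05). Unc5c, which binds netrin with Dcc, fell at 6, 24 and 48 h by 0.33 (SE 0.11), 0.47 (SE 0.11) and 0.49 (SE 0.10) on the log2 scale. At 48 h it was at 1499.6, 1563, 1669.6 and 1848 CPM in saline and at 1029.8 to 1295 CPM with a median of 1132 in IFN-γ wells, without overlap (adjusted p 0.000737), while at 6 h the groups overlapped (adjusted p 0.0184) and the call was lost without the count filter (adjusted p 0.364), in 1 fit of all wells and without 1 saline well. Robo1 fell by 0.48 (SE 0.19) at 6 h and 0.68 (SE 0.17) at 24 h. Efnb3 fell by 1.01 (SE 0.37) at 6 h, and at 24 h it was below the count filter, with a median of 88.1 CPM in saline and 23.1 CPM in IFN-γ wells. Plxnb3 and Sema6d fell at 24 h by 0.55 (SE 0.20) and 0.35 (SE 0.14).

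Sema6a, Ephb1, Unc5c, Efnb3 and Plxnb3 were all highest in oligodendrocytes among single nuclei. The 6 oligodendrocyte markers, all detected in every group, summed in NeuN- wells to 7643 CPM (6921 to 7973) in saline and 4507 CPM (3816 to 4872) in IFN-γ wells at 6 h, and to 7770 (7044 to 8623) and 2617 CPM (2347 to 2944) at 24 h. At 48 h they were at 8217 (7786 to 8692) and 7307 CPM (6443 to 7774), and at 72 h at 8201 and 7904 CPM. The list thus did not overlap between the groups at 6, 24 or 48 h. Sema6a and Ephb1 were lower at 6 and 24 h, and Unc5c at all 3 times. The part of the cell composition in these results was not tested.

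**Figure D4:**
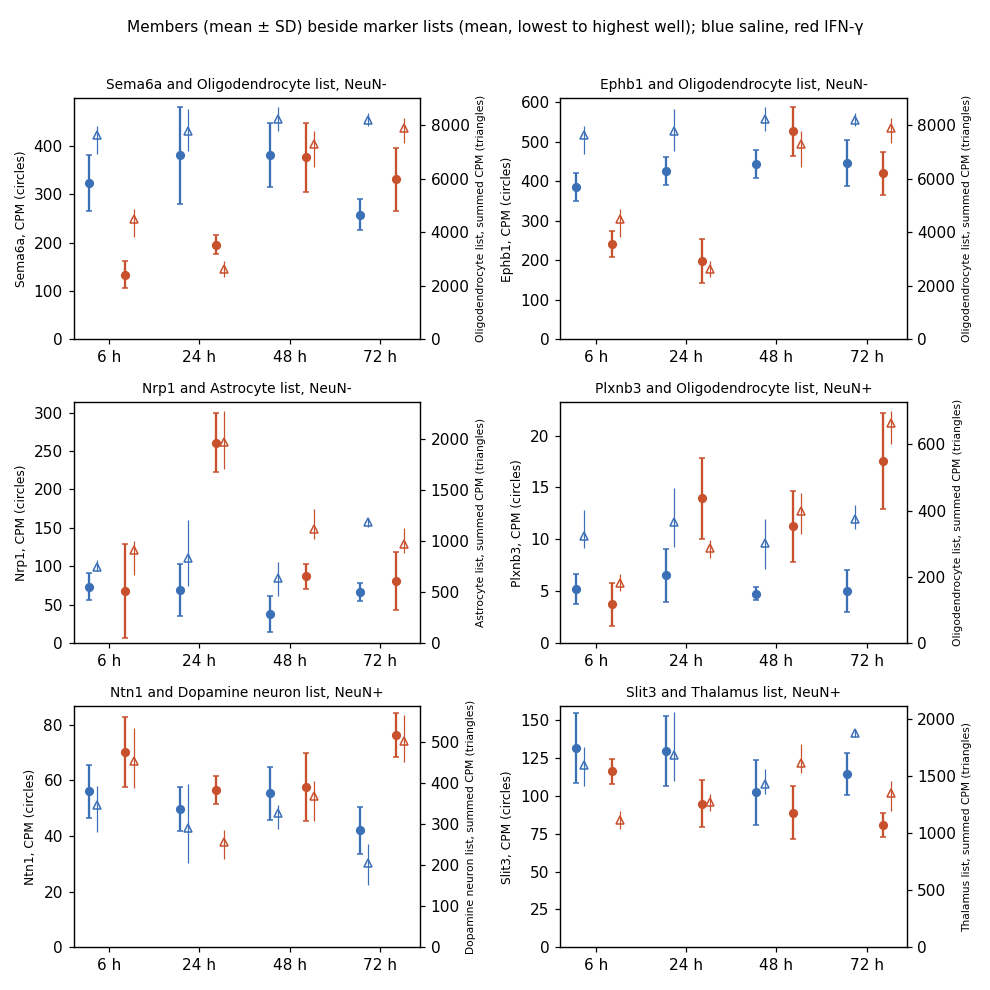
The 6 members (circles, mean CPM with SD, left axes) beside the summed CPM of a marker list (open triangles, mean with lowest and highest well, right axes) at 4 times, blue saline and red IFN-γ. Sema6a and Ephb1 in NeuN- wells are low at 6 and 24 h together with the oligodendrocyte list, and Plxnb3 and Ntn1 in NeuN+ wells are high at 72 h together with the oligodendrocyte and dopamine lists.

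In NeuN+ nuclei at 24 h, an EphA receptor and one of its ligands were lower. Epha4, a receptor for ephrins of both classes, ran from 178 to 231 CPM in saline wells with a median of 181, and from 99.6 to 142 CPM after IFN-γ with a median of 107. The groups did not overlap, and the log2 fold change was -0.81 (SE 0.10, adjusted p 1.85e-06). Efna5 ran from 347.5 to 495 CPM with a median of 398 in saline and from 253 to 347.3 CPM with a median of 296 in IFN-γ wells (-0.42, SE 0.09, adjusted p 0.00147), the highest IFN-γ well lying just under the lowest saline well. Ephb1 ran from 242 to 317 CPM with a median of 282 and from 194 to 239 CPM with a median of 214 (-0.34, SE 0.07, adjusted p 0.00101), also apart. Slit3 and Robo1 fell by 0.41 and 0.24, and Unc5d rose by 0.26. In the same wells the GABA list was at 255 CPM in saline and 135 CPM after IFN-γ, and the thalamic list at 1679 (1453 to 2057) and 1267 CPM (1195 to 1344), and their part was not tested.

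At 72 h, 8 members changed in NeuN+ nuclei, of which Ntn1, Epha10 and Ephb2 had changed at no earlier time there. Plxnb3 was at 3.68, 3.70, 4.84 and 7.94 CPM in saline and at 11.7 to 25.4 CPM with a median of 17.1 in IFN-γ wells, without overlap (log2 fold change 1.62, SE 0.32, adjusted p 0.00092, from 21 and 123 counts). It met the count filter through the IFN-γ wells alone, and with no filter the value was 1.63 (adjusted p 3.63e-05). It had also been higher at 24 h (0.98, SE 0.27, adjusted p 0.0166), again passing the filter through the IFN-γ wells alone, and at 48 h its wells did not overlap while the adjusted p was 0.117. The oligodendrocyte list in the same NeuN+ wells summed to 377 CPM (344 to 418) in saline and 663 CPM (600.1 to 700.1) in IFN-γ wells at 72 h, to 304 (225 to 375) and 400.1 CPM (331 to 454) at 48 h, and to 367 (290 to 468) and 287 CPM (256 to 313) at 24 h. Plxnb3 rose in NeuN- wells at 72 h as well, from 145, 191, 193 and 208 CPM to 236 to 401 CPM with a median of 286 (0.74, SE 0.18, adjusted p 0.00863), while the oligodendrocyte list there was at 8201 and 7904 CPM. The rise in NeuN- wells was lost without saline well 4 (adjusted p 0.078). Xist was at 29.3 CPM in saline and 46.2 CPM in IFN-γ NeuN+ wells at 72 h, and at 652 and 50.5 CPM at 24 h. The part of cell composition and of sex in the Plxnb3 results was not tested.

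Ntn1 was at 31.2, 40.6, 45.3 and 50.8 CPM in NeuN+ saline wells at 72 h and at 65.2 to 84.3 CPM with a median of 78.7 after IFN-γ. All IFN-γ wells were above the saline wells, at 0.78 (SE 0.12, adjusted p 2.63e-05). The 6 dopamine neuron markers, all detected, summed to 206 CPM (152 to 252) in these saline and 501 CPM (452 to 566) in these IFN-γ wells, and dopamine neurons were the leading class of Ntn1. Slit3 was at 95.6, 113, 124 and 126 CPM in saline and at 68.8 to 89.9 CPM with a median of 82.4 in IFN-γ wells (-0.56, SE 0.09, adjusted p 9.22e-05), with no overlap. Epha4 was at 195, 206, 209.6 and 217 CPM against 151 to 169 CPM with a median of 164 (-0.40, SE 0.07, adjusted p 0.000105), also apart, and lost the call against saline wells of all times (adjusted p 0.164). Sema6a and Sema5a fell by 0.43 and 0.39, and Epha10 and Ephb2 rose by 0.34 and 0.55. The VGLUT2 list was at 2119 (2038 to 2176) and 1480.4 CPM (1418 to 1536) and the thalamic list at 1876 (1840.1 to 1912) and 1352 CPM (1189 to 1455), with 8 of 9 thalamic markers detected after IFN-γ. Slit3 and Sema5a lead in VGLUT2 neurons, and the part of these lists was not tested.

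The interaction of fraction and treatment asked whether the change in NeuN+ nuclei differed from that in NeuN- nuclei. At 6 h, 0 of 32 members passed the first rule (0.938% and 1.59% of 5968 genes), with 12 at an unadjusted p below 0.05 by edgeR and 0 by the first rule in DESeq2, and 3 were higher by the second rule (3.64% and 5.01%): Sema6a by 0.89, Nrp1 by 1.10 and Ephb1 by 0.55. Nothing is drawn from the 12, which has no share over all genes beside it. The Nrp1 value rests on NeuN- wells below the count filter of their own comparison, and its call was lost in 7 of 20 fits that left out 1 well. At 24 h, 2 were higher and 2 lower by the first rule (1.97% and 2.25% of 7628 genes). The count filter of the interaction took both fractions together, and members that passed it through a single group were not counted. In the NeuN- comparison at 24 h, Nrp1 met the filter through IFN-γ wells alone and Plxnb3 through saline wells alone. Efnb3 was below that filter. Efnb3 differed by 2.22 (SE 0.51), with a fold change of 0.40 in NeuN+ wells that did not pass (adjusted p 0.463). Plxnb3, which rose in NeuN+ and fell in NeuN- wells at 24 h, differed by 1.42 (SE 0.35), Nrp1 by -1.63 (SE 0.23) and Epha4 by -1.38 (SE 0.34). Epha4 medians in NeuN- wells were 42.2 CPM after saline and 69.9 CPM after IFN-γ, where the gene was below the count filter. Dcc, Ephb1 and Sema6a differed by 0.95, 0.77 and 0.66 by the second rule (5.31% higher and 5.77% lower).

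At 48 h, 0 of 32 passed either rule in edgeR (0.0803% and 0.0482% of 6227 genes by the first, 0.401% and 0.321% by the second), with 6 at an unadjusted p below 0.05 and 2 by the second rule in DESeq2. The 6 has no share over all genes beside it, and nothing is drawn from it. At 72 h Ntn1 differed by 2.52 (SE 0.51, adjusted p 0.00181; background 0.254% higher and 0.0934% lower of 7494 genes). In NeuN- wells its saline values were 28.8, 36.3, 39.6 and 67.0 CPM and its IFN-γ values 0 to 27.2 CPM with a median of 15.4, on 23 and 11 counts, with no overlap. Sema6a and Epha4 differed by -0.73 and -1.35 by the second rule (1.45% and 0.414%), and Epha4 lost the call in 9 of 20 fits that left out 1 well. At 6 h Sema3e, with 13 counts in the NeuN- saline wells, had an interaction of -0.87 (SE 0.41, adjusted p 0.203), and a difference in its response between the fractions was not shown.

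In single nuclei at 48 h, the sums of the 2 IFN-γ mice were compared with that of the saline mouse within each class. The spread rests on the 2 IFN-γ mice and the saline mouse was assumed to vary like them, so an effect of IFN-γ and a difference of that 1 mouse cannot be told apart. By the first rule of that comparison, a log2 fold change beyond 3 in both IFN-γ mice with an adjusted p below 0.01, 0 members passed in any class in edgeR, and at an unadjusted p below 0.05 there were 5 of 41 members in oligodendrocytes (11.3% of all genes), 2 of 25 in astrocytes (7.37%), 2 of 8 in microglia (14.7%), 6 of 60 in VGLUT2 neurons (7.33%), 3 of 59 in GABA neurons (2.06%) and 2 of 53 in dopamine neurons (2.44%). The background of that rule ran from 0.00534% of genes in GABA neurons to 0.807% in microglia. By an adjusted p below 0.05, 4 members passed, 1 in each of 4 classes. Unc5d was higher in oligodendrocytes of the IFN-γ mice (1.38, SE 0.41, adjusted p 0.0316; 15.8 CPM in the saline mouse and 44.8 and 31.9 CPM after IFN-γ, from 11, 121 and 46 UMIs; background 1.75%), where 508 nuclei of 1 cluster led by the interferon-induced genes Iigp1, Tgtp2 and Irgm2 came from the IFN-γ mice alone. Pan-neuronal markers summed to 130, 135 and 86.6 CPM in the oligodendrocyte nuclei of the saline and the 2 IFN-γ mice. Unc5d stood at 1117 CPM in GABA neurons of the saline mouse, and the part of free RNA in its value was not tested. Slit2 was lower in astrocytes (-3.29, SE 0.73, adjusted p 0.00426; 12, 4 and 5 UMIs; background 0.0844%), and Plxna4 in microglia (-1.06, SE 0.33, adjusted p 0.0494; 619, 291 and 318 CPM; background 0.881%). The Slit2 value was -2.25 without the first and -3.82 without the second IFN-γ mouse. The microglia came from a cluster of 31, 23 and 22 nuclei in the saline and the 2 IFN-γ mice and one of 0, 13 and 9, and a cluster of 0, 13 and 23 nuclei led by Cd74 and H2-Aa, nearest to microglia by its markers, stayed unnamed and out of the class. Both calls were lost with another scaling (relative log expression, adjusted p 0.234 and 0.0563).

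Sema6a was higher in VGLUT2 neurons (0.77, SE 0.17, adjusted p 0.0225; 62.2, 118 and 94.6 CPM; background 0.404%). In the first IFN-γ mouse it stood at 229 CPM in the 2 VGLUT2 clusters that came to more than 80% from 1 mouse and at 82.5 CPM in its other VGLUT2 nuclei, and without those clusters the fold change was 0.38 (adjusted p 0.627). The same clusters were high in Epha4, Slit3 and Sema5a, at 318, 314 and 341 CPM against 107, 123 and 183 CPM, and low in Robo2, Unc5d and Sema3e. The leading genes of 1 of these clusters included Lef1, Synpo2, Prkcd and Plekhg1 of the thalamic list, and those of the other Synpo2. The part of region in these values was not tested. Sema3e and Nrp1, which had moved early in wells, did not pass the test in any class at 48 h. Sema3e in GABA neurons was at 99.6, 42.4 and 105 CPM and differed by -0.46 (SE 0.45, adjusted p 1.00), and Nrp1 in astrocytes was at 238, 303 and 322 CPM and differed by 0.42 (SE 0.33, adjusted p 0.763). In the first IFN-γ mouse Sema3e stood at 6.95 CPM in the GABA clusters that came to more than 80% from 1 mouse. In its other GABA nuclei Sema3e stood at 80.7 CPM.

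Of 58 partner genes of the same pathways (effectors inside the cell, co-receptors and related cues), 22 were tested in NeuN- wells at 6 h, of which 3 rose and 4 fell, and 19 at 24 h, of which 7 rose and 4 fell, beside the backgrounds given for the members. At 48 h 2 rose and 1 fell of 22, and at 72 h 0 rose and 2 fell of 26, with 8 at an unadjusted p below 0.05 by edgeR. Nothing is drawn from the 8, as the share over all genes is not given. At 24 h the rise included the adhesion genes Chl1 (1.58, SE 0.26), Nrcam (1.47, SE 0.14) and Cntn1 (1.196, SE 0.18), and the fall the collapsin response mediator Dpysl2 (-0.98, SE 0.19) and the netrin receptor Neo1 (-0.65, SE 0.14). These are examples, and the other partners that moved are not named. In the same NeuN- wells the oligodendrocyte list was at 7770 CPM after saline and 2617 CPM after IFN-γ. The astrocyte list was at 837 and 1966 CPM, and the part of cell composition was not tested. In NeuN+ wells, 53 partners were tested at 6 h, of which 3 rose and 4 fell. At 24 h 4 of 52 rose and 3 fell, at 48 h a single one of 52 rose, and at 72 h the result was 3 up and 4 down among 53. The Rac activator Vav3 fell at 6, 24 and 72 h (-0.53, -0.86 and -1.005) and rose at 48 h (0.51), and Ntng1, a cue anchored to axons, fell at 6 and 72 h (-0.52 and -0.76), being also 1 of the 3 VGLUT2 markers used here.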

How the data were processed

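Nuclei of the ventral midbrain were measured in 84 sorted wells and in 3 droplet libraries. The authors deposited raw counts: UMI counts per gene and well, aligned with STAR to GRCm38, and UMI counts per gene and nucleus. From the nuclei they had removed doublets, rare populations such as mural cells and T cells, and ambiguous neuronal clusters. Members and gene lists were chosen with earlier results of these data known.

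The deposited counts were tested with edgeR 4.0.16 (filterByExpr, TMM scaling, quasi-likelihood test, Benjamini-Hochberg adjustment) in R 4.3.3, each time point and fraction on its own, over all genes that passed the filter. DESeq2 1.42.0 was an alternative. The interaction was fitted over both fractions at one time. Levels are counts per 1e6 UMIs (CPM), computed here. Well totals ran from 20962 to 301445 in NeuN- and from 277113 to 1684374 in NeuN+ wells, so low members were mostly below the filter in NeuN- wells.

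Nuclei were clustered on 2000 variable genes, 30 components and 15 neighbours with leidenalg 0.10.2 at resolution 1, named from marker lists, and summed per mouse and class, with at least 10 UMIs per gene. No doublet caller was run, and the 3 libraries shared 0 barcodes. Intervals are exact Poisson or binomial at 95% and cover counting error only.

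Named members are those called by the first rule in any IFN-γ comparison or interaction, filled up to 4 by the lowest adjusted p, the 8 furthest in each direction between fractions and the 5 with the largest lead per class. Further members are given as members of the families. The code was tested on simulated data. Alternatives were another scaling, no filter, DESeq2, one fit of all wells, saline wells of all times, treatment as a term, other resolutions and leaving out each well. Gene positions came from Gencode on GRCm38. A search of the members' promoters is not reported here.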

Additional observations from a re-analysis of the deposited data

Results flagged for a closer look

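A single well stood apart from the others of its group in 4 of 46 well groups tested, where chance gives about 1 in 20. Ephb1 in NeuN- saline wells at 6 h had a lowest well of 334 CPM with the next at 399 CPM. Unc5c in NeuN- IFN-γ wells at 6 h had a lowest well of 572 CPM with the next at 1136 CPM. Epha4 in NeuN+ IFN-γ wells at 24 h had a highest well of 142 CPM with the next at 114 CPM, and Sema3e in NeuN+ saline wells at 24 h one of 108 CPM with the next at 93.8 CPM.

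The change after IFN-γ differed between NeuN+ and NeuN- nuclei for 13 values, given as NeuN+ minus NeuN- log2 fold change with edgeR's adjusted p. At 6 h these were Sema6a at 0.89 (adjusted p 0.00335), Ephb1 at 0.55 (0.028) and Nrp1 at 1.10 (0.0405). At 24 h they were Nrp1 at -1.63 (7.97e-07), Ephb1 at 0.77 (0.000506), Efnb3 at 2.22 (0.00163), Dcc at 0.95 (0.00194), Epha4 at -1.38 (0.00318), Plxnb3 at 1.42 (0.00343) and Sema6a at 0.66 (0.0201). At 72 h they were Ntn1 at 2.52 (0.00181), Sema6a at -0.73 (0.0159) and Epha4 at -1.35 (0.0452).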

How the results depend on the processing

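Of 48 named values from wells, none changed direction under any alternative run, and 46 kept their call in DESeq2, 48 with relative log expression scaling, 40 without the filter on low counts, 21 of 23 in one fit of all wells, 20 of 22 against saline wells of all times, 14 of 15 with treatment as a term and 964 of 1000 when a well was left out. The causes of lost calls were not tested. Members at an adjusted p below 0.05 numbered 3 in NeuN- at 48 h, 2 in NeuN- at 72 h, 2 in NeuN+ at 48 h and 4 in NeuN+ at 72 h against saline wells of all times, 2 in NeuN- at 72 h with relative log expression, and 0 in NeuN+ at 48 h in DESeq2. Between fractions they numbered 47 in DESeq2 and 52 without the filter, where 47 also passed the first rule and more members were tested. The shares of all genes in those runs are not given. For the interaction they numbered 2 in DESeq2 and 1 without the filter at 48 h, and 1 without the filter at 6 h. By the first rule 1 member passed in NeuN- at 6 h and 1 in NeuN+ at 24 h against saline wells of all times. In nuclei the count went to 0 in astrocytes, microglia and VGLUT2 neurons with relative log expression, and to 0 in VGLUT2 neurons at resolution 0.5 and without clusters mostly from 1 mouse. The share of member UMIs was 33.7% in dopamine neurons at resolution 2 and 28.4% in VGLUT2 neurons at resolution 0.5.

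With each well left out, members at an adjusted p below 0.05 numbered 3 to 6, 6 to 8, 1 to 1 and 0 to 1 in NeuN- at 6, 24, 48 and 72 h, and 9 to 12, 8 to 13, 0 to 1 and 7 to 9 in NeuN+, with 29 to 34 between fractions and 2 to 4, 6 to 9, 0 to 1 and 1 to 3 for the interaction. By the first rule they numbered 1 to 3, 2 to 3, 0 and 0 in NeuN-, 0 to 2, 0 to 1, 0 and 1 to 1 in NeuN+, 29 to 34 between fractions, and 0 to 1, 3 to 5, 0 and 0 to 1 for the interaction. The Sema3e rise in NeuN+ at 6 h was 0.99 without saline well 4, inside the limit of 1, and its fall at 48 h kept its call in 3 of 10 such fits, with an adjusted p of 0.334 in DESeq2. In nuclei, leaving out a mouse left no residual spread, so such fits gave values with no test. No paired analysis was possible because the labels carry no replicate numbers. Depth limited NeuN- wells, where 8 to 12 members could be tested.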
